A study of Mus musculus with 14 samples.

Results

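The genes described here are 10 genes of the endoplasmic reticulum (ER) stress response, chosen by name: Hspa5, Hsp90b1, Pdia4, Dnajb9, Herpud1, Xbp1, Atf4, Ddit3, Sdf2l1 and Calr. They are 10 of 18193 genes with a single symbol on the array, and all 10 were among the 12945 genes that passed the filter on low signal. Messenger RNA was measured on 14 Affymetrix arrays of subcutaneous white adipose tissue, the fat depot under the skin, from male C57BL/6 mice aged 12 weeks. In the 7 exercised samples the mice had lived in cages with a running wheel for 11 days, and the 7 sedentary samples came from control mice labelled as sedentary. The comparison asks how running changed transcript levels in this fat depot. C57BL/6 is an inbred strain, and the labels name no transgene, diet or drug for either group. They are silent on distance run, on the hour of collection and on whether arrays stand for different animals. Each p-value is therefore set against the spread between these samples, part of which may be technical.

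The ER folds proteins that a cell secretes or places in its membranes. When unfolded proteins build up there, the sensors IRE1, PERK and ATF6 start the unfolded protein response, in which IRE1 splices the Xbp1 transcript into the form that encodes the active factor, PERK favours translation of Atf4, and cleaved ATF6 enters the nucleus. These factors raise chaperones, folding enzymes and the machinery that removes misfolded proteins, and long activity raises Ddit3, which encodes CHOP. Adipocytes secrete large amounts of adiponectin, leptin and lipases and rely on this machinery. The arrays count spliced and unspliced Xbp1 together and say nothing of protein or phosphorylation.

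The median signal of an array was 531.3 at the lowest and 617.4 at the highest. The summed signal of 16 markers of mature adipocytes, led by Fabp4, Lpl and Adipoq, was 590640 to 760079 in exercised samples. In sedentary samples it was 389854 to 654932, so adipocyte transcripts were abundant on each array. Muscle signal was also large on some arrays. The sum of 23 skeletal muscle markers was 592026, 904348 and 962354 on exercised arrays 2, 3 and 6. The adipocyte sums of these arrays were lower, at 590640, 664712 and 632134. On every other array the muscle sum was below the adipocyte sum. Sedentary array 5 stood apart: it had the lowest adipocyte sum of the 14 arrays, its mean correlation with the arrays of its own group was 0.894, and 2984 of 12945 genes (23.1%) had their highest signal there. Sedentary array 7 had a mean correlation of 0.897, and the other 12 arrays had 0.934 to 0.952. Results are therefore given with and without sedentary array 5. Differences are exercised minus sedentary on the scale log2(signal + 46.7), tested with limma and adjusted by the Benjamini-Hochberg method over all genes tested, with a threshold of 0.05.

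By limma 1 of the 10 genes rose in exercised tissue, Dnajb9, where 4.0% of all genes tested rose (5.53% changed in either direction). None of the 10 (0) fell, where 1.53% of all genes did. Without adjustment, p was under 0.05 for 1 gene that was higher and 2 that were lower, where 11.3% and 10.5% of all genes were. A single call in 10 genes is close to the share among all genes and says nothing about the group. The median difference of the 10 genes was -0.14, with 3 positive and 7 negative values. That of all 12945 genes tested was -0.03, with 5822 positive and 7123 negative values. Without sedentary array 5, Sdf2l1 fell as well, so that 1 rose and 1 fell, where 3.84% and 1.71% of all genes did (5.55% in either direction, and 10.2% each way at an unadjusted p under 0.05). The median of the 10 genes was then -0.06. None of the 10 genes (0) had exercised and sedentary values that did not overlap, where 1.95% of all genes lay wholly higher and 0.734% wholly lower. The same held without sedentary array 5, where the shares of all genes were 1.96% and 0.966%.

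**Figure D1:**
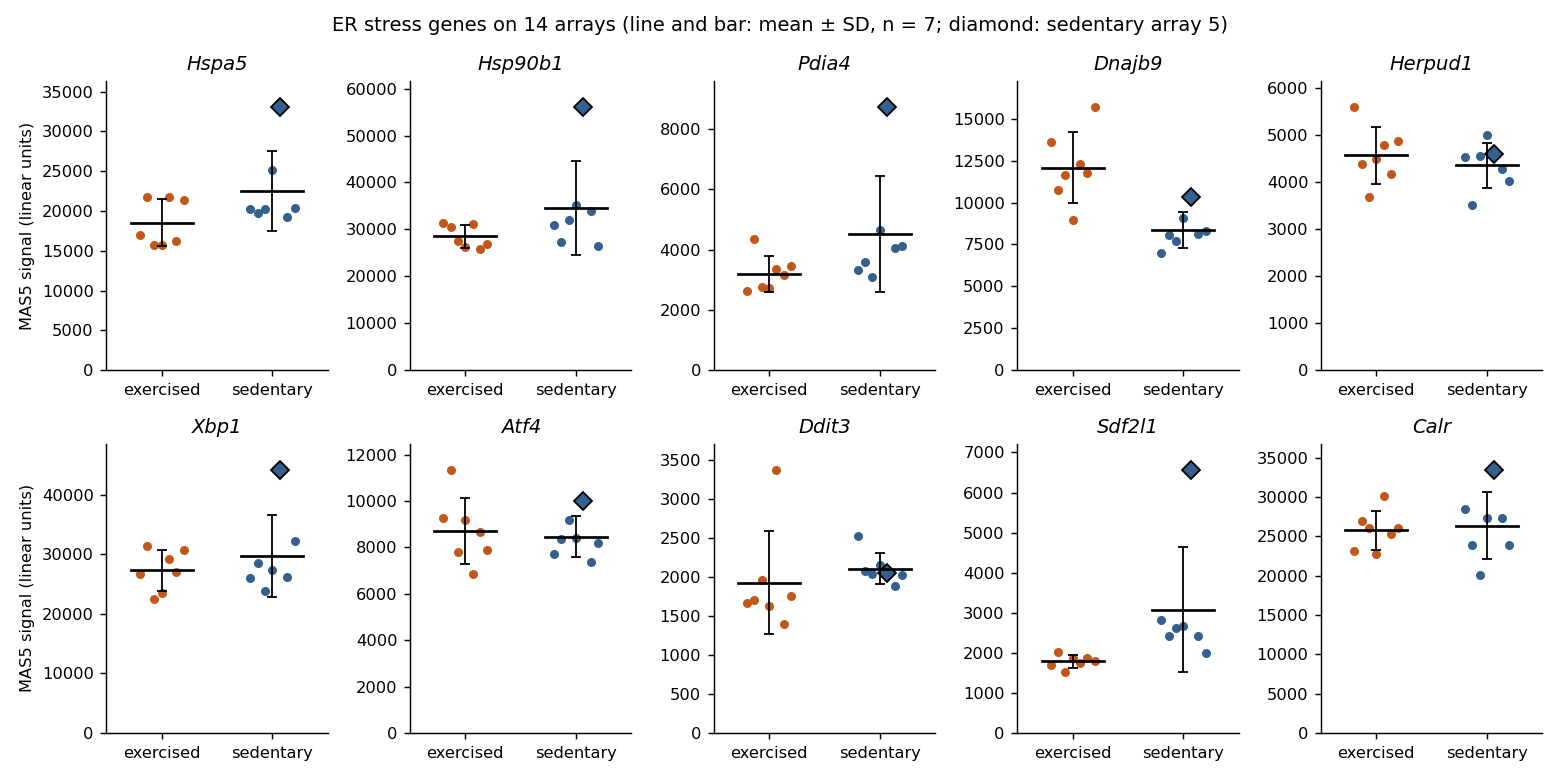
MAS5 signal (linear units) of the 10 ER stress genes on each of 7 exercised and 7 sedentary arrays, with mean and SD. Dnajb9 lies higher on most exercised arrays, Sdf2l1 lies lower, and sedentary array 5 (diamond) is the highest of the 14 arrays for 6 of the 10 genes.

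Dnajb9, also called ERdj4, is a co-chaperone of the J-domain family that helps the chaperone BiP bind its clients and is a known target of spliced Xbp1. Its signal ran from 8951 through a median of 11744 to 15681 in exercised tissue, against 6995 through 8124 to 10336 in sedentary tissue. All 7 exercised values were above the sedentary median, 6 of them were above every sedentary value, and exercised array 4, the lowest of its group, lay below sedentary arrays 4 and 5. The means were 12090.4 ± 2134 in exercised and 8368 ± 1065 in sedentary tissue (SD, n = 7 each). The log2 signal rose by 0.52, or 1.43-fold (SE 0.11, adjusted p = 0.0152 by limma). Without sedentary array 5 it rose by 0.57 (SE 0.11, adjusted p = 0.00712 by limma). With the replicate number added to the fit it did not pass (0.52, adjusted p = 0.0735 by limma). A single probe set represents this gene, so no other probe set of the array bears on its value.

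Sdf2l1 encodes an ER protein that joins the BiP chaperone complex and is induced strongly by ER stress in cultured cells. Its signal ran from 1512 through 1801 to 2012 in exercised tissue, against 1990 through 2622 to 6562 in sedentary tissue. All 7 exercised values were below the sedentary median and 6 were below every sedentary value, while exercised array 2 lay just above sedentary array 7. The means were 1785 ± 160 in exercised and 3070 ± 1562 in sedentary tissue (SD, n = 7 each). The large sedentary spread came with array 5, since the other 6 sedentary arrays averaged 2488 ± 286 (SD, n = 6). With all arrays the difference was -0.66 (SE 0.20, adjusted p = 0.0597 by limma), which did not pass. Without sedentary array 5 the difference was smaller and the gene passed: it fell by 0.47 (SE 0.09, adjusted p = 0.00736 by limma). It also passed without sedentary array 7, where it fell by 0.75 (adjusted p = 0.0343 by limma), and did not pass when any other single array was left out. Sdf2l1 has 1 probe set as well.

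**Figure D2:**
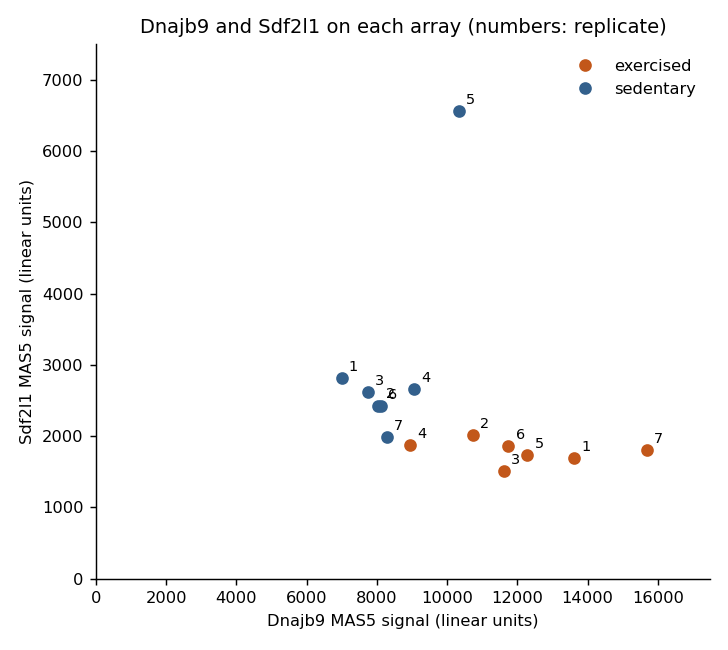
Signal of Dnajb9 (x axis) against Sdf2l1 (y axis), both in linear MAS5 units, 1 point per array with its replicate number. Exercised arrays have Sdf2l1 signals of 1512 to 2012 and, but for array 4, lie to the right of all sedentary arrays, which have 1990 to 2810 apart from array 5 at 6562.

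The start regions of these genes were read from RefSeq (build GRCm38.p6), with a single window of 300 bases for each of the 10 genes, because chaperone genes of the ER are known to share promoter elements. The promoters of Dnajb9 and Sdf2l1, the pair of genes with a call, are shown 5′ to 3′ on the gene's strand, with capitals at CCACG, the core letters bound by ATF6 and XBP1 in the elements of the ER stress response, or at CGTGG, the same letters on the opposite strand.
Dnajb9 promoter, chr12:44210019-44210318 (-): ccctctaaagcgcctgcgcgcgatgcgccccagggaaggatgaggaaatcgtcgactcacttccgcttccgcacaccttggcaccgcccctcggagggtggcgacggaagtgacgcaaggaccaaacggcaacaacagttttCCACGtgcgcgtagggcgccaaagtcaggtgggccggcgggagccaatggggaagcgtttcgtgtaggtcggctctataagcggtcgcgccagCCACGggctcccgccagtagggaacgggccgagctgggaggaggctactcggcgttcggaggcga
Sdf2l1 promoter, chr16:17132334-17132633 (-): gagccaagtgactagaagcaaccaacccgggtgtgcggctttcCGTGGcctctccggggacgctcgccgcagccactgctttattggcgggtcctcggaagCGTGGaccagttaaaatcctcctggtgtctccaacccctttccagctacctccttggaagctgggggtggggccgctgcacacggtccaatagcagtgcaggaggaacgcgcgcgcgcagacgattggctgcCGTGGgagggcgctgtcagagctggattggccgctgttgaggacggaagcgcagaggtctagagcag
These windows hold the core 2 times for Dnajb9 and 3 times for Sdf2l1. It is common, present in 32.8% of 32851 windows and in 8 of the 10 genes, with Xbp1 and Ddit3 as the exceptions. The full ER stress element, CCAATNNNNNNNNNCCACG on either strand, was present in 0.119% of windows and in 3 of the 10 genes, Hspa5, Hsp90b1 and Calr. The related element of ATTGG and CCACG with 1 base between them was present in 0.0365% of windows and in Herpud1 alone of the 10 genes. Both contain the core, so every such match is also a core match. The elements are printed with 10 flanking bases on each side and their fixed letters in capitals.
Hspa5 ERSE, chr2:34772015-34772053 (+): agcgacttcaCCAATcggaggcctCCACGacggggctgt
Hsp90b1 ERSE, chr10:86705628-86705666 (-): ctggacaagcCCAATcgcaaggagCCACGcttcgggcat
Hsp90b1 ERSE, chr10:86705523-86705561 (-): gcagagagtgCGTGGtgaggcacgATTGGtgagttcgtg
Calr ERSE, chr8:84847065-84847103 (-): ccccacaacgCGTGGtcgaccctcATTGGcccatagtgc
Herpud1 ERSE-II, chr8:94386367-94386397 (+): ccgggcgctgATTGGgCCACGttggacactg
The Hspa5 element begins 65 bases before the start, those of Hsp90b1 212 and 107 bases before it, that of Calr 162 and that of Herpud1 52. The XBP1 element TGACGTGG, in 0.676% of windows, was in none of the 10 (0). The composite element of C/EBP and ATF factors, TGATGNAA, in 3.97% of windows, was in 1 of the 10, Herpud1. None of the 4 genes with a full element changed by the test with all arrays, where 5.53% of all genes tested changed. With so few genes no link between element and change can be read from this. The windows of Dnajb9 and Sdf2l1 hold neither full element. A match is a description of letters and not a measured binding site.

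The abundant chaperones had lower mean signals in exercised tissue, but none passed the test. Hspa5 encodes BiP, the HSP70 chaperone of the ER that also holds the sensors inactive. Hspa5 signal ran from 15747 through 17027 to 21748 in exercised tissue, against 19237 through 20255 to 33029.5 in sedentary tissue. Of the exercised arrays 4 lay below every sedentary array, and the other 3, at 21426 to 21748, lay above 5 of the 7 sedentary arrays. The difference was -0.27 (SE 0.13, adjusted p = 0.229 by limma), and without sedentary array 5 it was -0.18 (SE 0.10, adjusted p = 0.349 by limma). Another Hspa5 probe set, whose values ran with the chosen one (r = 0.941 over 14 arrays, across arrays of both groups), had a difference of -0.36 (adjusted p = 0.104 by limma), and the third one had -0.11 (r = 0.021).

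Hsp90b1 encodes GRP94, the HSP90 chaperone of the ER. The chosen Hsp90b1 probe set ran from 25812 through 27523 to 31442 in exercised tissue, against 26542 through 31926 to 56014 in sedentary tissue. All 7 exercised values were below the sedentary median, although the groups overlapped widely. The difference was -0.24 (SE 0.13, adjusted p = 0.313 by limma) and -0.11 without sedentary array 5 (adjusted p = 0.445 by limma). The other probe set of Hsp90b1 averaged 5850 ± 822 in exercised and 9438 ± 3417 in sedentary tissue (SD, n = 7 each), with a difference of -0.63 (SE 0.17, adjusted p = 0.0514 by limma over all probe sets). On that probe set the gene fell by 0.49 without sedentary array 5 (adjusted p = 0.0319 by limma over all probe sets), so the call depends on the probe set.

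Pdia4, or ERp72, is a protein disulfide isomerase that forms and rearranges disulfide bonds. Pdia4 signal ran from 2618 through 3162 to 4351 in exercised tissue, against 3103 through 4059 to 8722 in sedentary tissue. Of the exercised arrays 6 lay below the sedentary median and 3 below every sedentary value, so the groups overlapped. The difference was -0.42 (SE 0.19, adjusted p = 0.211 by limma), and without sedentary array 5 it was -0.25 (SE 0.12, adjusted p = 0.266 by limma). Calr, or calreticulin, is a lectin chaperone that binds calcium and holds new glycoproteins. Its signal ran from 22825 through 26037 to 30198 in exercised tissue, against 20136 through 27297 to 33461 in sedentary tissue, with full overlap of the groups. The difference was -0.02, with a 95% interval from -0.23 to 0.19 (adjusted p = 0.925 by limma), and its sign turned to 0.04 without sedentary array 5 and to 0.02 when arrays were centred on their medians. Its other probe sets had differences of 0.05 and -0.01.

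**Figure D3:**
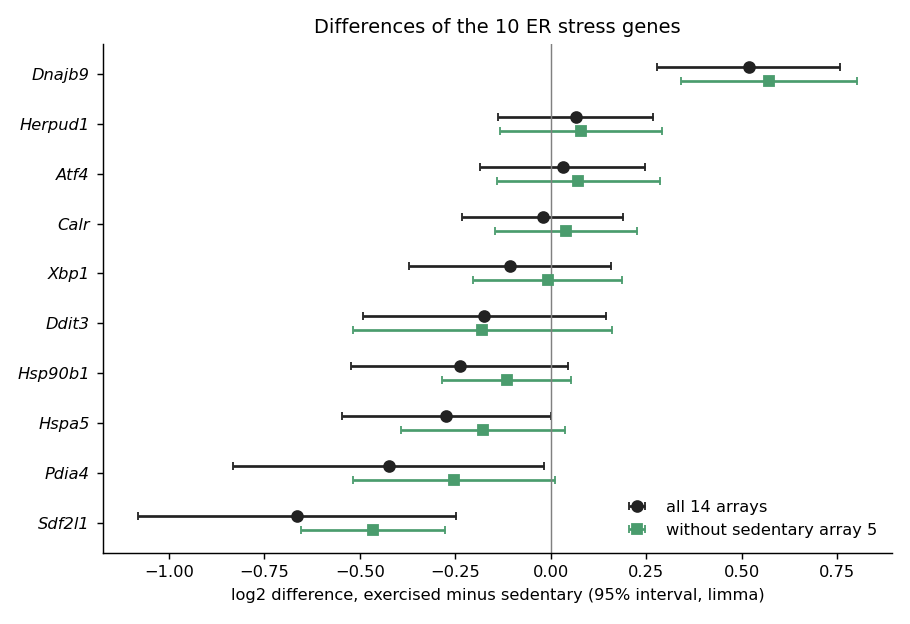
Log2 difference, exercised minus sedentary (x axis), of each of the 10 genes, with 95% intervals from limma, for all 14 arrays (circles) and without sedentary array 5 (squares). Only the intervals of Dnajb9 and Sdf2l1 lie apart from 0 in both settings, while those of Sdf2l1, Pdia4, Hspa5 and Hsp90b1 become narrower and move towards 0 without that array.

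None of the 3 transcription factors of the response passed the test, with or without sedentary array 5. Xbp1 had signals from 22460.2 through 27092 to 31476 in exercised tissue, against 23778 through 27392 to 44169.6 in sedentary tissue. The groups overlapped, with 2 exercised arrays below every sedentary one and sedentary array 5 far above all others. The difference was -0.11, with a 95% interval from -0.37 to 0.16 (adjusted p = 0.643 by limma), and -0.01 without sedentary array 5, with an interval from -0.20 to 0.19. Its other 3 probe sets had differences of -0.05, 0.05 and -0.03.

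Atf4, the factor translated when PERK or related kinases phosphorylate the initiation factor eIF2, ran from 6838 through 8669.5 to 11339.7 in exercised tissue, against 7369.6 through 8368 to 10017 in sedentary tissue. The exercised values spread to both sides of the sedentary ones. The difference was 0.03, with a 95% interval from -0.19 to 0.25 (adjusted p = 0.882 by limma), and 0.07 without sedentary array 5. The chosen Atf4 probe set and the other one past the filter hardly ran together over the 14 arrays (r = 0.087), so array-by-array Atf4 values depend on the probe set. That other probe set had a difference of -0.0004 (adjusted p = 0.999 by limma over all probe sets).

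Ddit3 encodes CHOP, which is raised by Atf4 and promotes cell death under lasting ER stress. Its signal ran from 1400.0 through 1707 to 3369 in exercised tissue, against 1880.1 through 2052 to 2524 in sedentary tissue. Of the exercised arrays 5 lay below every sedentary array, while array 5 of that group was the highest of all 14. The difference was -0.17, with a 95% interval from -0.49 to 0.14 (adjusted p = 0.523 by limma), and -0.18 without sedentary array 5. Without exercised array 5 it was -0.31 (adjusted p = 0.0672 by limma). The other Ddit3 probe set had -0.02 (adjusted p = 0.973 by limma over all probe sets), and 0.08 without sedentary array 5. Herpud1, a membrane protein that organises ER-associated degradation, ran from 3676 through 4489.6 to 5587 in exercised tissue, against 3502 through 4522 to 4999 in sedentary tissue. The groups overlapped throughout. Its difference was 0.07, with a 95% interval from -0.14 to 0.27 (adjusted p = 0.719 by limma), and 0.08 without sedentary array 5. The other Herpud1 probe set had -0.03. The 10 genes have 13 other probe sets, of which 11 passed the filter. Of these, 7 had the sign of the chosen one and none (0) passed the threshold with all arrays by limma over 27027 probe sets.

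Sedentary array 5 was the highest of the 14 arrays for Hspa5, Hsp90b1, Pdia4, Xbp1, Sdf2l1 and Calr, which is 6 of the 10 genes, where 23.1% of all genes tested had their highest value there. Its Sdf2l1 signal was 2.60 times the median of the other 6 sedentary arrays, its Pdia4 signal 2.28 times and its Hsp90b1 signal 1.78 times. For Xbp1 the ratio was 1.65, for Hspa5 1.63 and for Calr 1.31. Dnajb9 (1.28) and Atf4 (1.21) stood less far out, and Herpud1 (1.04) and Ddit3 (0.997) were at the level of the other arrays.

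**Figure D4:**
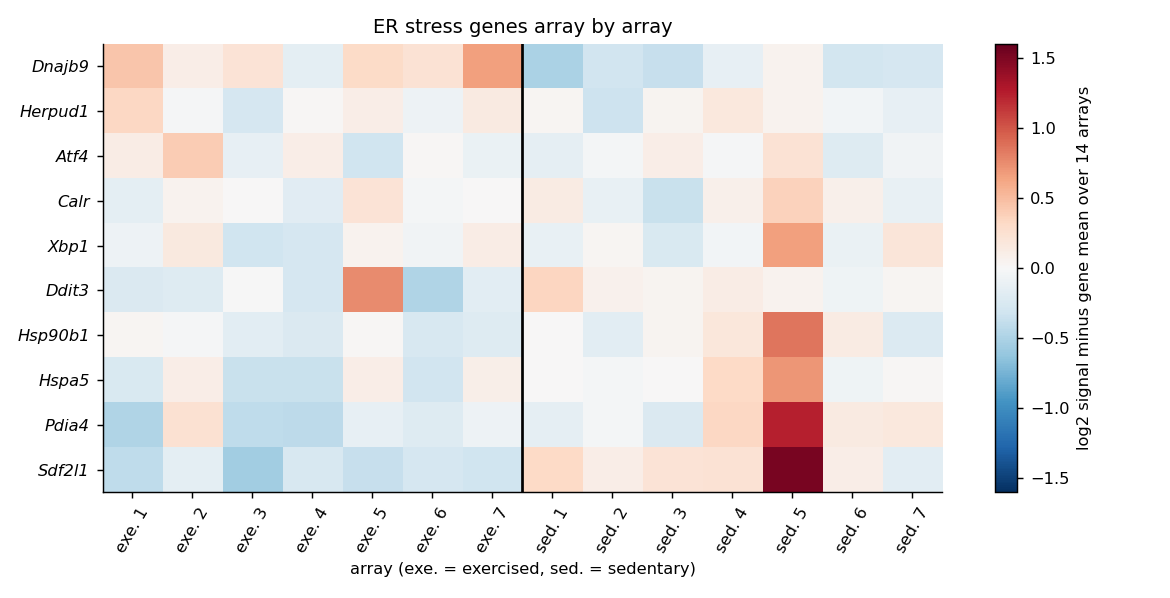
Log2 signal of each of the 10 genes (rows) on each array (columns, 7 exercised then 7 sedentary), minus the gene's mean over the 14 arrays. Sedentary array 5 is high for Sdf2l1, Pdia4, Hsp90b1, Hspa5 and Xbp1 and near the mean for Dnajb9, Herpud1 and Ddit3.

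Sedentary array 5 was also high in markers of other cells. The summed signal of 9 plasma cell markers, such as Jchain and Mzb1, was 17044 to 43906 in exercised and 22252 to 137071 in sedentary samples, and array 5 held the highest sum, where the other 6 sedentary arrays reached 58072. Plasma cells secrete antibody and have an expanded ER, and 1 of their markers, Derl3, is also in the list of ER-associated degradation. Markers of neutrophils and acute inflammation (17 genes) summed to 25007 to 39626 in exercised and 29600.2 to 221540 in sedentary samples, and 57299 was the most on any sedentary array but array 5. For 15 lymphocyte markers the sums were 5164 to 69684 in exercised and 6094 to 126766 in sedentary samples, and for 18 macrophage markers 154724 to 200503 and 166132 to 272399 in the same order, with array 5 highest in both. By limma 1 of 18 macrophage and 1 of 16 tested inflammation markers fell, where 1.53% of all genes tested fell. Of the lymphocyte markers 0 of 15 changed, and of the plasma cell markers 0 of 8 tested. The sums include 1 plasma cell and 1 inflammation marker whose mean signal lay below the filter. Fewer cells of a type and less RNA per cell cannot be told apart in whole tissue, and the part of these cells in the values of the 10 genes was not tested. Other arrays went both ways. Exercised array 2 had the highest plasma cell sum of its group (43906) and the second highest Hspa5 signal (21728). Its Pdia4 (4351), Xbp1 (31476) and Sdf2l1 (2012) signals were the highest of the group. Exercised arrays 5 and 7 had the lowest plasma cell sums of the group (20726 and 17044) and Hspa5 signals of 21748 and 21426, among its 3 highest. Sedentary array 7 had the lowest plasma cell sum of its group, 22252, and its second highest Xbp1 signal, 32252. Without array 5 the differences of Hspa5, Hsp90b1, Pdia4 and Sdf2l1 were smaller, and that of Dnajb9 was as large.

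Markers of other fat cells and tissues also differed between arrays. Of 14 tested markers of brown and beige adipocytes 9 rose, where 4.0% of all genes tested rose and 1.53% fell. The sums of the 14 were 63003 to 207785 in exercised and 8405 to 63815 in sedentary samples. The 23 skeletal muscle markers summed to 16402 to 962354 in exercised and 13273 to 349601 in sedentary samples, with 0 past the threshold by limma. Exercised array 4, with the lowest muscle sum of its group, had the lowest Dnajb9 signal of the group, while exercised array 1, with a muscle sum of 18588, had the second highest Dnajb9 signal, 13618. Exercised arrays 7, 1 and 5, with the highest brown and beige sums of their group (207785, 179386 and 166428), had its highest Dnajb9 signals in the same order (15681, 13618 and 12290). Exercised array 2, with the lowest brown and beige sum, had the second lowest Dnajb9 signal, 10726. In sedentary tissue array 1 had the highest brown and beige sum, 63815, and the lowest Dnajb9 signal, 6995. Sums of 13 epithelial markers were 4469 to 10909 in exercised and 4635 to 10685 in sedentary samples, and 1 of 8 tested fell. Those of 10 fibroblast and progenitor markers were 207905 to 342702 and 214364 to 292398 in the same order, and 0 changed. Of the 16 adipocyte markers 3 rose. The part of these tissues in the Dnajb9 value was not tested.

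Within groups, the genes ran together more closely with sedentary array 5 than without it. After group means were subtracted, the 45 pairs of the 10 genes had a median Pearson r of 0.417 over 14 arrays and of 0.177 over 13 arrays without array 5, and 9 pairs exceeded 0.7 with it and 2 without it. The pairs that stayed above 0.7 were Hspa5 with Pdia4 (0.733) and Pdia4 with Xbp1 (0.728). Dnajb9 had an r of 0.456 with Hspa5 and of 0.441 with Xbp1 without array 5, and of -0.287 with Sdf2l1. Atf4 and Ddit3 had a negative r with and without it (-0.547 and -0.583). This holds for the chosen probe sets, and array-by-array Atf4 values depend on the probe set. All genes of an array share its hybridisation and its cell mixture, so these are descriptions of the arrays. The 5 genes most like Hspa5 by this measure over the 14 arrays were Rpn1 (0.948), C3ar1 (0.922), Vcan (0.920), Nus1 (0.913) and Pnp (0.907). Rpn1, a subunit of the oligosaccharyltransferase that glycosylates proteins in the ER, was also the most alike without array 5 (0.896), and its own difference was -0.16 (adjusted p = 0.515 by limma).

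In the wider machinery of the ER 127 genes were tested in 5 lists, of which 0 rose and 9 fell (7.09% of the 127, where 1.53% of all genes fell). A few genes belong to more than 1 list. The lists were chosen with earlier results of these data known, so these shares are descriptions and no independent test of the ER machinery. Without adjustment, p was under 0.05 for 7 higher and 31 lower genes by limma (5.51% and 24.4% of the 127), where 11.3% and 10.5% of all genes were. Of the 127 differences 37 were positive and 90 negative, with a median of -0.12. Among all 12945 genes tested 5822 were positive and 7123 negative, with a median of -0.03. The count that fell moved with the processing, to 15 after quantile normalisation and 3 after centring on array medians. With the replicate number added to the fit, 2 fell. It was 3 without exercised array 3, 4 without exercised array 1, 5 or 7 or sedentary array 3, and 5 without exercised array 6 or sedentary array 1, 2 or 4, each with fewer arrays in the fit. Without sedentary array 5 there were 6 that fell (Erp29, Rcn1, Sec24d, Ostc, Ddost and Nupr1) and the median was -0.06. That array held the highest of the 14 signals for 72 of the 127 genes, where 23.1% of all genes tested had their highest signal there.

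Of 31 folding and disulfide enzymes 3 fell and 0 rose. Of their differences 27 were negative (median -0.16), where 7123 of all 12945 genes tested were negative. Erp29, a folding factor related to the disulfide isomerases, averaged 3622 ± 318 in exercised and 5286 ± 1001 in sedentary tissue (SD, n = 7 each) and fell by 0.53 (SE 0.10, adjusted p = 0.00879 by limma), and by 0.44 without sedentary array 5 (adjusted p = 0.0032 by limma). Rcn1, a calcium-binding protein of the ER, fell by 0.36 (adjusted p = 0.0186 by limma, and 0.0172 without sedentary array 5), and Uggt1, which marks unfolded glycoproteins for another round of calreticulin binding, by 0.45 (adjusted p = 0.0457 by limma, and 0.0702 without sedentary array 5). Dnajc3, a BiP co-chaperone, had a difference of -0.20 (adjusted p = 0.0614 by limma).

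Of 35 genes of translocation and export 3 fell and 0 rose. Of their differences 29 were negative (median -0.21), where 7123 of all 12945 genes tested were negative. Sec24d, a coat protein of the vesicles that leave the ER, averaged 3440.5 ± 321 in exercised and 4687 ± 514 in sedentary tissue (SD, n = 7 each), with every exercised value (3012 to 3868) below every sedentary one (4195 to 5701), as was the case for 0.734% of all genes. It fell by 0.44 (SE 0.08, adjusted p = 0.00684 by limma) and by 0.39 without sedentary array 5 (adjusted p = 0.00638 by limma). Ostc and Ddost, both of the oligosaccharyltransferase, fell by 0.49 and 0.33 (adjusted p = 0.0345 and 0.0428 by limma), and both passed without sedentary array 5 (adjusted p = 0.0206 and 0.0253 by limma). The groups did not overlap for Ddost, Erp29 and Rcn1 either, so that 4 of the 9 genes that fell had every exercised value below every sedentary one. These 9 were picked by a test on the same values, so such separation is partly built in. Among all genes tested 198 fell and 95 lay wholly lower. Spcs2, of the signal peptidase, had -0.37 (adjusted p = 0.064 by limma).

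Of 9 tested genes in the list of sensors and related factors 1 fell, Creb3l2, a membrane-bound relative of ATF6. Its difference was -0.41 (SE 0.11, adjusted p = 0.0357 by limma, and 0.0553 without sedentary array 5). Atf6b had -0.35, Eif2ak3, which encodes PERK, -0.18, and Creb3l1 -0.29 (adjusted p = 0.171, 0.195 and 0.300 by limma). Of 24 genes listed under ER-associated degradation 0 changed by limma, and the median was -0.03. An unadjusted p under 0.05 was found for 2 higher and 1 lower gene (8.33% and 4.17% of the 24), below the shares of all genes. The lower gene was Niban1, which the list includes but which is not an established part of this machinery. The ubiquitin ligase Marchf6 had a difference of 0.24, Derl1, a channel component, 0.20, Niban1 -0.23 and Edem1, a mannosidase-like protein that directs glycoproteins to degradation, -0.38 (adjusted p = 0.0974, 0.215, 0.185 and 0.229 by limma). Edem1 reached 12911.5 on sedentary array 5, where the other sedentary arrays reached 5825.

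Of 30 tested targets of ATF4 and CHOP 2 fell and 0 rose, with 16 positive and 14 negative differences (median 0.01). Nupr1, a stress-induced nuclear protein, averaged 6106 ± 1095 in exercised and 8962 ± 1673 in sedentary tissue (SD, n = 7 each) and fell by 0.55 (adjusted p = 0.0258 by limma, and 0.0184 without sedentary array 5). Mthfd2, a mitochondrial enzyme of folate metabolism, fell by 0.43 (adjusted p = 0.0399 by limma, and 0.0613 without sedentary array 5). Chac1, which degrades glutathione, ran from 758 to 4451 in exercised and from 635 to 1429 in sedentary tissue, with a difference of 0.93 (SE 0.31, adjusted p = 0.0973 by limma). Ddit4, an inhibitor of mTORC1 signalling, had -0.70 (adjusted p = 0.109 by limma).

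**Figure D5:**
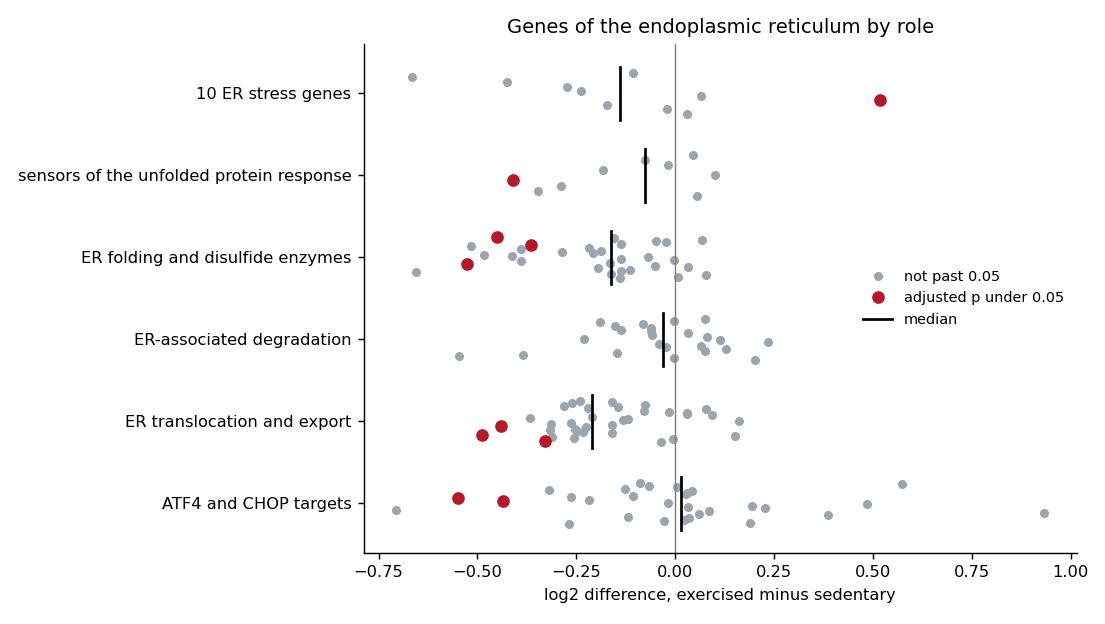
Log2 difference, exercised minus sedentary (x axis), of every tested gene of the 10 ER stress genes and of 5 wider lists, 1 point per gene, with list medians as bars and genes past the threshold in red. Dnajb9 is the one red point to the right of 0, and the 9 others lie to the left.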

How the data were processed

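Deposited values were microarray intensity on a linear scale, 1 for each of 45101 probe sets on 14 arrays, and come from MAS5, which the submitters' processing notes name; sources used here give no version or settings. Total RNA was extracted with a column kit and labelled as biotinylated cRNA, per the labels' protocols. Every array had a mean of 1500 after trimming 2% from both tails, so scaling hides differences in total RNA. No sample column was left unused.

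Groups came from the titles. Signals were used as log2(signal + 46.7), the 10th percentile of all values. Probe sets with a mean under 389.7 (the 40th percentile of means), 64 control probe sets and those with several or no symbols were left out of gene tests. Symbols were updated through Entrez identifiers with the GRCm38.p6 gene table (34741 of 34945). Each gene took its probe set with the highest mean over 14 arrays. The group difference was fitted in R 4.3.3 with limma 3.58.1 (lmFit, then eBayes with its trend option) and tested on both sides, with Benjamini-Hochberg adjustment over 12945 genes. The code was tested on simulated data. Intervals are 95%. Folds and log2 differences understate changes of dim genes. The number of arrays limits precision.

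The 10 genes, the 5 wider ER lists and the marker lists were chosen with earlier results of these data known. Named were all 10 genes, the 4 with the smallest p in each wider list, the 5 most like Hspa5 and up to 3 of the brightest markers. Alternatives left out each array, changed normalisation, pseudocount, filter, probe sets, variance trend and array weights, or added the replicate number as a block; leaving out sedentary arrays 5 and 7 together was added after seeing the data.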

Additional observations from a re-analysis of the deposited data

Results flagged for a closer look

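Of 20 sets of 7 values (10 genes in 2 groups), 4 had an end value whose gap to its neighbour took more of the range than the 95% limit of Dixon's test allows on the log2 scale, where chance gives about 1 in 20. In sedentary tissue array 5 was the highest for Sdf2l1, with a gap of 0.713 of the range, for Hsp90b1 (0.624) and for Pdia4 (0.612). In exercised tissue array 5 was the highest for Ddit3 (0.618). The labels do not say whether the 2 arrays share more than a number.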

How the results depend on the processing

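Dnajb9 kept its direction under all 25 alternatives, between 0.45 and 0.59, and passed in 24. Sdf2l1 stayed negative in all 25, between -0.75 and -0.47, and passed in 4: without sedentary array 5, without sedentary array 7, without both (adjusted p = 0.00339 by limma) and with array weights (adjusted p = 0.00723 by limma). The other 8 genes passed in none. Same-numbered arrays had correlations of -0.425 to 0.381 and 3 of 7 matched their own number best. The labels do not say whether the numbers pair the arrays, and these values do not settle it. With the replicate number as a replicate block Dnajb9 differed by 0.52 (adjusted p = 0.0735 by limma), leaving 0 of the 10 genes higher, 136 of all genes higher and 25 lower, and 2 wider ER genes lower. When single arrays were left out, the 10 genes gave 1 to 1 higher and 0 to 1 lower, all genes 309 to 591 higher and 79 to 262 lower, and the wider lists 0 to 1 higher and 3 to 8 lower. In those fits Calr ranged from -0.083 to 0.039 and Atf4 from -0.035 to 0.086. Calr also turned positive after centring (0.017), with all its probe sets averaged (0.0067), with array weights (0.029) and without sedentary arrays 5 and 7 (0.026), where Xbp1 had 0.041. With array weights 1 wider ER gene rose and 398 of all genes fell, and 1 of the 10 genes fell, as it did without sedentary arrays 5 and 7. Quantile normalisation gave 15 lower wider ER genes. Centring gave 3, and 86 lower among all genes, and moved the share of calls that were higher to 86.4%, where it was 72.3% in the main setting and 61.2% with array weights. The cause of these shifts was not tested, and fits that left arrays out also had fewer arrays.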
